A study of Mus musculus with 6 samples.

Results

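The probes described here are those that a mouse expression array annotates with an Ensembl transcript accession, called Ensembl-only probes below. Whether probes with another kind of accession cover the same transcripts was not checked. They were chosen as the non-control probes whose annotated accession starts with ENSMUST, which gave 7284 of 56605 non-control probes, or 12.9%. These probes name 7098 different transcripts. 6923 transcripts have 1 probe, 165 have 2, 9 have 3 and 1 has 4, so probes of the same transcript share a target. Each probe was printed on 1 spot, apart from 123 that were printed on 10 spots each.

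Ensembl builds transcript models from aligned cDNA and protein evidence, partly by hand and partly by an automatic pipeline, and the models include protein-coding forms, alternative and partial transcripts of known genes, pseudogenes and non-coding RNAs. The scanner files hold the transcript accession but no gene symbol or description. The RefSeq gene table used for names has an empty Ensembl column, so it could not have paired any of the accessions with a gene. What the changed transcripts encode is therefore not analysed here, and no probe or promoter sequence is shown. Only the 2 largest rises and the 2 largest falls past the threshold, ranked as fitted, are called by their accession.

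Total RNA came from a glioblastoma stem cell line derived from mouse brain tumours that an SB transposon had induced. The cells grew as neurospheres, in medium without serum to which B27, N2, EGF and bFGF were added. Both groups carried a lentiviral shRNA. The 3 control arrays were from cells with a non-target hairpin (NT), and the 3 knockdown arrays were from cells with a hairpin against Ggct, which encodes gamma-glutamylcyclotransferase, an enzyme that acts on gamma-glutamyl dipeptides in glutathione turnover. The sample titles name 1 cell line code, 5B, and 1 Ggct hairpin, mGGCTsh3, so other effects of that hairpin cannot be told apart from loss of Ggct. Each of 3 dates in the titles is shared by 1 control and 1 knockdown array, which makes 3 pairs. The labels give the dates but do not say whether each array had its own culture, so a p-value here reflects array-to-array spread that may be technical in part.

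Ggct itself was at 12.7% of control in the knockdown (log2 difference -2.97, SE 0.21, with an adjusted p of 0.0147 in limma), with normalised log2 signals of 3.32 to 3.72 on control arrays and 0.22 to 0.91 on knockdown arrays. Of 6 neural and glioma stem cell markers, 5 (Sox2, Nes, Msi1, Prom1 and Fabp7) were well above background on all 6 arrays, and Olig2 was on none. Markers of other cell types were also seen on all 6 arrays. These were 2 of 4 for astrocytes, 3 of 4 for neurons, 3 of 4 for oligodendrocytes, 2 of 5 for leukocytes and microglia (Csf1r and Itgam, while Ptprc was on none), 2 of 3 for endothelium, 1 of 2 for red cells, 1 of 4 for T cells (Cd3e) and 0 of 4 for B cells. Their part in the results was not tested. The 75th percentile of the spot intensity ran from 531 to 867 units, and 54.5% to 56.8% of all probes were well above background on an array. The number of arrays limits the precision.

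A small majority of the Ensembl-only probes gave a signal in these cells. A probe is called detected here when the scanner software marked its spots as well above the local background. 3856 of the 7284 probes, or 52.9%, were detected on 3 or more of the 6 arrays, against 56.2% of all non-control probes. Detection was mostly all or nothing. 3421 Ensembl-only probes (47.0%) were detected on every array, 3086 (42.4%) on none, and the other groups from 1 to 5 arrays held 118 to 208 probes each. At the limit of the rule, 118 probes were detected on exactly 3 arrays and 134 on exactly 2. Counted by transcript, 53.3% had at least 1 probe detected on 3 or more arrays.

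**Figure D1:**
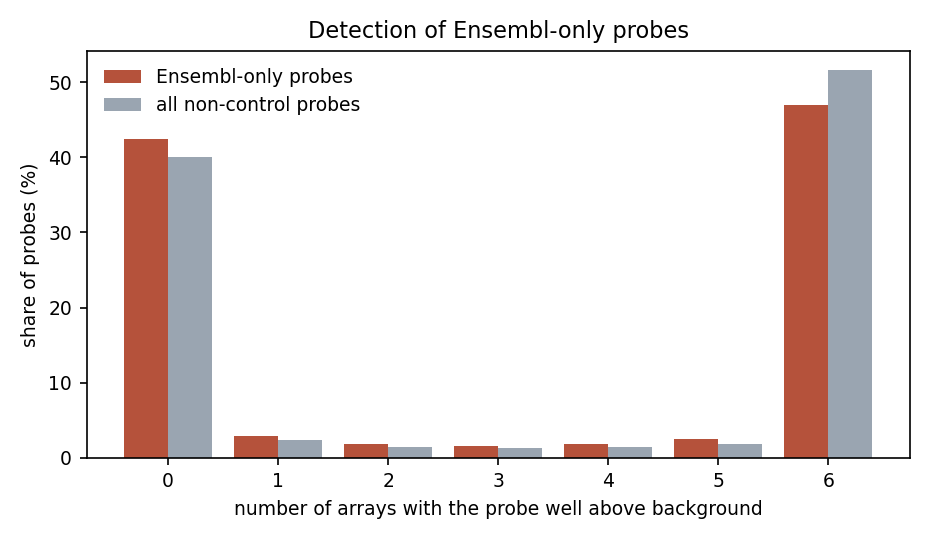
Share of probes (y axis, %) by the number of arrays on which the probe was well above background (x axis, 0 to 6), for the 7284 Ensembl-only probes and for all 56605 non-control probes. Both sets pile up at 0 and 6 arrays, with 42.4% and 47.0% of the Ensembl-only probes there.

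The Ensembl-only probes lay between the RefSeq mRNA probes and the other transcript classes in detection. 66.9% of the probes for RefSeq mRNAs were detected on 3 or more arrays, as were 36.3% of those for RefSeq non-coding RNAs, 43.1% of those with a cDNA or EST accession and 47.2% of those placed by genome coordinates. These shares are descriptions of 1 array design hybridised with 1 cell line and were not tested against each other. Within the Ensembl-only set the share moved with the series of the probe name, which is the number that follows the letter A in the name. It was 79.6% of 191 probes in series 65, 54.6% of 4401 in series 55, 625 of 1251 in series 52, 48.7% of 928 in series 66 and 43.7% of 513 in series 51. Over all non-control probes of the same series the share was 76.1%, 57.2%, 57.9%, 46.7% and 60.9%, in that order.

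The number of detected Ensembl-only probes did not differ between the groups beyond the spread of the arrays. Control arrays detected 3756, 3745 and 3922 of them, and knockdown arrays 3849, 3740 and 3793. The ranges overlapped. The means were 3808 ± 99.2 and 3794 ± 54.5 (SD, n = 3 each; two-sided exact permutation p = 0.8, where 0.1 is the smallest value that 3 against 3 arrays allow). The median normalised log2 signal of the tested probes was -1.70, -1.88 and -1.86 on control arrays and -1.98, -1.96 and -1.82 on knockdown arrays, so the groups overlapped (exact permutation p = 0.3).

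Much of the detected signal was weak. Normalised log2 signal is the log2 spot intensity after subtraction of that array's 75th percentile, and the detection floor is the lowest value called well above background on that array. The median tested Ensembl-only probe lay 3.46 log2 units above the mean floor, with quartiles of 1.59 and 6.36, while the median over all tested probes was 4.74. 607 of the tested Ensembl-only probes (15.7%) lay less than 1 log2 unit above the floor, against 11.3% of all tested probes. A probe's brightness also depends on how well that probe hybridises, so these heights describe how measurable the probes were and do not rank amounts of RNA.

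The spread between arrays was larger for dim probes. Within groups, the median SD of a tested Ensembl-only probe was 0.41 log2 units less than 1 unit above the floor, 0.32 from 1 to 3 units, 0.24 from 3 to 5 units and 0.15 above 5 units. The corresponding medians over all tested probes were 0.38, 0.29, 0.24 and 0.17. The 95% interval of a log2 fold change had a median half-width of 0.45 for Ensembl-only probes and 0.42 over all tested probes. For 2863 of 3855 tested Ensembl-only probes, or 74.3%, the interval lay wholly within a 2-fold change in either direction. Over all tested probes this held for 24943 of 31804, or 78.4%.

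For the probes printed 10 times, the spread between spots of 1 array could be measured as well. 121 of the 123 were tested, and they were bright, with a median of 12.8 log2 units above the floor. The SD between their spots on 1 array had a median of 0.034 log2 units, and the SD between arrays of a group had a median of 0.11. The median SD between arrays was 0.26 for the probes on 1 spot, which were dimmer. Their changes were small, from -0.08 to 0.33 log2 units with a median of 0.11, and 0 passed the adjusted threshold or an unadjusted limma p below 0.05 (lowest adjusted p = 0.279). Of the 172 other tested probes with repeated spots, 5 (2.91%) passed the adjusted threshold. Over all tested probes 1.75% passed the adjusted threshold and 19.1% the unadjusted one.

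Knockdown and control were then compared probe by probe, which asks how suppression of Ggct changes expression. Of the tested Ensembl-only probes, 22 rose and 17 fell in the knockdown at an adjusted p below 0.05, or 1.01% of 3855. Over all 31804 tested probes the share was 1.75%, and it was 1.16% for higher and 0.591% for lower, beside 0.571% and 0.441% of the Ensembl-only probes. At an unadjusted p below 0.05 there were 300 higher and 367 lower Ensembl-only probes, together 17.3%, against 19.1% of all tested probes. The test was limma with Benjamini-Hochberg adjustment over all tested probes, and the adjusted p-values of the 39 ran from 0.0217 to 0.0499, all close to the threshold. At a looser adjusted p below 0.1 in limma, 87 Ensembl-only probes were higher and 80 lower, together 167 or 4.33%, against 6.09% of all tested probes. In bulk RNA, fewer cells with a transcript and less of it per cell cannot be told apart.

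The calls depended on the model and on single arrays. With the date pair as a replicate block, 0 Ensembl-only probes and 0.0% of all tested probes passed (lowest limma adjusted p = 0.0742), although 593 Ensembl-only probes, among them all 39, had an unadjusted p below 0.05 (17.5% of all tested probes did). With 1 array left out, 19 passed without knockdown replicate 1 and 0 without any 1 of the other 5 arrays, with 412 to 673 still at an unadjusted limma p below 0.05. Of all 31804 tested probes, 192 passed without knockdown replicate 1 and 45 without knockdown replicate 2. In the remaining single-array fits 0 of them passed. The split between directions also moved with the scaling. It was 13 higher and 18 lower with quantile normalisation and 30 higher and 15 lower with the 75th percentile taken over probes detected on all arrays.

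**Figure D2:**
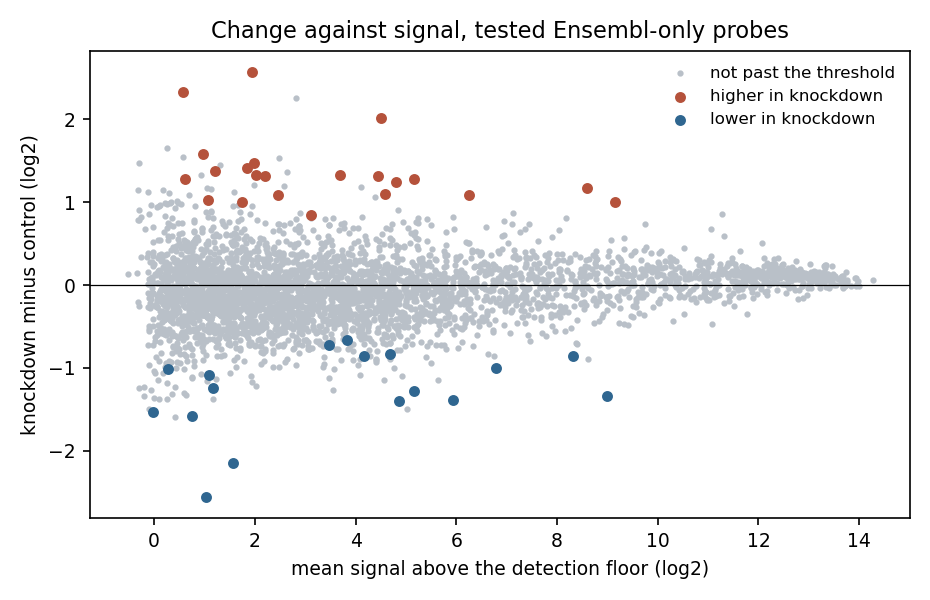
Log2 change, knockdown minus control (y axis), against mean signal above the detection floor (x axis, log2) for the 3855 tested Ensembl-only probes, each point 1 probe. The 22 that rose and the 17 that fell are coloured, and the scatter of the uncoloured probes narrows with rising signal.

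The size of the changes was moderate. As fitted, the probes that rose did so 1.80-fold to 5.93-fold, with a median of 2.45-fold, and those that fell did so 1.59-fold to 5.86-fold, with a median of 2.37-fold. 31 of the 39 changed at least 2-fold, 20 higher and 11 lower, which is 0.804% of the tested Ensembl-only probes beside 1.13% of all tested probes. A further 61 Ensembl-only probes had a mean change of at least 2-fold without passing, with 22 values above 0 and 39 below. Passing or not, 92 Ensembl-only probes (2.39%) changed at least 2-fold, 42 higher and 50 lower. Over all tested probes these were 911 (2.86%), with 600 higher and 311 lower. The median log2 fold change of the tested set was -0.037, against -0.0070 over all tested probes. 1757 values lay above 0 and 2098 below. By height above the detection floor, the median of the Ensembl-only probes was -0.08 under 1 log2 unit, -0.11 from 1 to 3, -0.13 from 3 to 5 and 0.06 above 5, beside 0.01, -0.03, -0.03 and 0.0040 over all tested probes. The medians below 0 were in the 3 dimmer ranges. The median differed between pairs, at -0.17, -0.03 and 0.12 for pairs 1, 2 and 3, where all tested probes gave -0.03, -0.0039 and 0.04.

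The calls were spread over the range of signal. They made up 0.988% of the Ensembl-only probes less than 1 unit above the floor, 1.17% from 1 to 3 units, 1.32% from 3 to 5 units and 0.690% above that, beside 2.33%, 1.87%, 2.22% and 1.36% of all tested probes. 30 of the 39 were detected on all 6 arrays, 17 that rose and 13 that fell. Another 2 that fell were detected on all control arrays and no knockdown array. Those 2 met the 3-array filter through the control group alone. A further 5 calls were detected on all knockdown arrays but only some control arrays. Another 2 were detected on all control arrays but only some knockdown arrays. These too would have missed the filter without the group detected on all its arrays, so their tests cannot serve as support. By probe series, 22 of the calls were in series 55 (0.916% of its tested Ensembl-only probes, against 1.74% of all its tested probes), 8 in series 52 (1.28% against 1.58%), 5 in series 51 (2.23% against 2.29%), 4 in series 66 (0.887% against 1.67%) and 0 in series 65 (against 0.786%).

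The largest fitted rise past the threshold was in ENSMUST00000023246, covered by 1 probe on 1 spot. Its normalised log2 signal was -4.19, -5.13 and -4.71 on control arrays 1, 2 and 3 and -1.20, -2.81 and -2.32 on knockdown arrays 1, 2 and 3. All knockdown values lay above all control values. The group means were -4.68 ± 0.47 and -2.11 ± 0.83 (SD, n = 3 each), and the change was 5.93-fold (log2 difference 2.57, SE 0.43, 95% interval 1.55 to 3.58). Its adjusted p was 0.0450 in limma and 0.0742 once the pairs entered as a replicate block. ENSMUST00000023246 was detected on 2 control and 3 knockdown arrays, so its control level was close to the floor. Without the knockdown arrays it would have missed the 3-array filter, so its test cannot serve as support.

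ENSMUST00000185937 rose 5.02-fold as fitted. Its normalised log2 signal was -6.33, -6.24 and -5.23 on the control arrays, where it was detected on 1 of 3, and -3.12, -3.97 and -3.72 on the knockdown arrays, where it was detected on 3 of 3. The groups did not overlap, and the highest control value came from replicate 3. The other control values lay under the detection floor of their arrays, and with those raised to the floor the log2 difference was at least 1.59. As a lower bound, this does not settle its rank among the rises. The means were -5.93 ± 0.61 and -3.60 ± 0.44 (SD, n = 3 each), and the log2 difference was 2.33 with an SE of 0.35. In limma the adjusted p was 0.0397, and 0.115 with the pairs as a replicate block. ENSMUST00000185937 would also have missed the 3-array filter without the knockdown arrays, so this test cannot serve as support.

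The largest fitted fall past the threshold was in ENSMUST00000198941, to 17.1% of control. The control arrays gave -2.82, -3.27 and -2.99 and the knockdown arrays -4.91, -5.41 and -6.41 in normalised log2 signal. The control values lay close together, and the transcript was detected on 1 knockdown array, replicate 1 being the highest of the 3. The other knockdown values lay under the floor, and with those raised to the floor its level was at most 22.9% of control. As an upper bound, this does not rank it against ENSMUST00000183531, which was at 22.5% of control. The means of ENSMUST00000198941 were -3.03 ± 0.23 and -5.58 ± 0.77 (SD, n = 3 each), and the log2 difference was -2.55 with an SE of 0.37. In limma the adjusted p was 0.0378, and 0.107 with the pairs as a replicate block. ENSMUST00000198941 would have missed the 3-array filter without the control arrays, so this test cannot serve as support.

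ENSMUST00000183531 fell to 22.5% of control and was detected on all 6 arrays. Its normalised log2 signal was -2.08, -2.97 and -3.04 on control arrays and -5.33, -4.83 and -4.37 on knockdown arrays, so the groups lay apart. Pair 1 held both the highest control and the lowest knockdown value, and the pair differences were -3.25, -1.86 and -1.34. The log2 difference between the groups was -2.15, with an SE of 0.33 and an adjusted p of 0.0400 in limma. With the pairs as a replicate block the SE was 0.40 and the adjusted p 0.125. With normexp background correction, whose offset pulls dim signals together, the log2 changes were 1.17 for ENSMUST00000023246, 0.57 for ENSMUST00000185937, -0.88 for ENSMUST00000198941 and -0.92 for ENSMUST00000183531, and ENSMUST00000198941 still passed. With quantile normalisation the adjusted p in limma was 0.0521 for both ENSMUST00000023246 and ENSMUST00000185937, while ENSMUST00000198941 and ENSMUST00000183531 still passed.

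**Figure D3:**
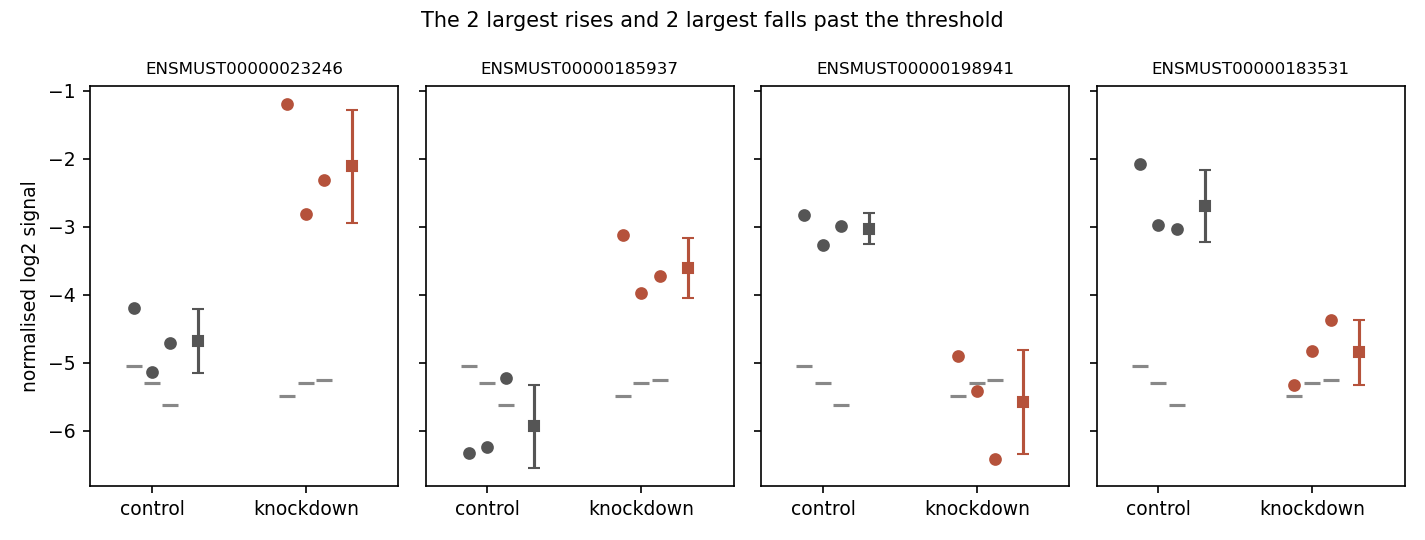
Normalised log2 signal (y axis) of the 2 largest rises and the 2 largest falls past the threshold, ranked as fitted, by group (x axis). Circles are arrays in the order of replicates 1 to 3, squares with bars are the mean ± SD (n = 3) and grey dashes are the detection floor of each array. The groups do not overlap for any of the 4, and the lower group lies nearer to the detection floor than the higher group.

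All 39 probes past the threshold moved the same way in all 3 pairs, and their control and knockdown arrays did not overlap. Such separation was common. Over the tested Ensembl-only probes, 454 (11.8%) had every knockdown array above every control array and 445 (11.5%) every knockdown array below, against 14.5% and 12.4% of all tested probes. A change of at least 2-fold in every pair was rarer. 13 Ensembl-only probes (0.337%) were that much higher and 11 (0.285%) that much lower, against 0.745% and 0.211% of all tested probes.

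Pair 1 gave the largest of the 3 pair differences in 27 of the 39 probes, pair 2 in 4 and pair 3 in 8. Knockdown replicate 1 also stood apart over all tested Ensembl-only probes. On their first principal component, which held 49.3% of the variance, it lay at 28.6, with the other knockdown arrays at 2.9 and -1.3 and the control arrays at -19.3, -13.1 and 2.1. Without knockdown replicate 1, 19 Ensembl-only probes passed (0.604% of all tested probes did), and 18 of these were among the 39. The part of that array in the result was not otherwise tested.

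**Figure D4:**
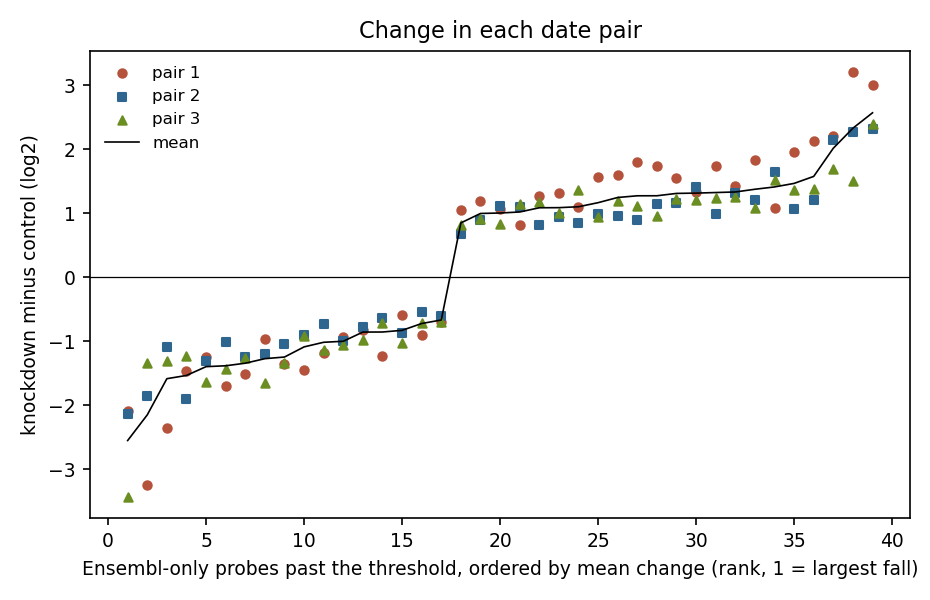
Log2 difference, knockdown minus control (y axis), in each of the 3 date pairs for the 39 Ensembl-only probes past the threshold, ordered by mean change (x axis, rank). Symbols are pairs and the line is the mean. All symbols of a probe lie on 1 side of 0, and pair 1 is the farthest out in 27 probes.

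Some probes were detected in 1 group only. 13 were detected on all 3 control arrays and no knockdown array, and 5 on all 3 knockdown arrays and no control array. No matching count over all tested probes is given here, so these counts are not read as particular to the Ensembl-only probes. The dim group then gives only a bound, so the fold is the bright group's mean against, for each dim array, the higher of its floor and its own signal. The bounds were at least 1.27-fold to at least 2.03-fold lower for the 13 and at least 1.17-fold to at least 1.65-fold higher for the 5. These probes met the 3-array filter through 1 group alone, so a test of them cannot serve as support. 2 of the 13 are nevertheless among the 39 probes past the threshold, and 0 of the 5 are.

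Transcripts with several probes allowed a check within the set. Of 175 such transcripts, 74 had all their probes detected on 3 or more arrays, 60 had none and 41 were mixed. 75 transcripts had at least 2 tested probes, which made 77 probe pairs. The 2 probes of a pair moved to the same side of 0 in 56 pairs (72.7%) and to opposite sides in 21. Their log2 fold changes differed by a median of 0.14 and at most 0.70. Across the 77 pairs, which share the same 6 arrays and are not independent, Pearson's r was 0.78 and Spearman's rho 0.72.

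Probe pairs of 1 transcript often differed far more in signal than in change. The median gap in mean signal was 1.43 log2 units, and it exceeded 3 units in 18 pairs and reached 8.08. In 1 transcript both probes passed, at log2 differences of 1.08 (SE 0.14) and 1.46 (SE 0.19), with adjusted p-values of 0.0346 and 0.0356 in limma. Both were higher in all pairs, at 1.26, 0.81 and 1.18 for the brighter probe and 1.96, 1.07 and 1.36 for the dimmer. In 1 other transcript the brighter probe passed at -1.38 (SE 0.19, adjusted p of 0.0378 in limma) while the dimmer was at -0.68 (SE 0.17, adjusted p of 0.0920), lower in all pairs. The 39 probes thus stand for 38 transcripts.

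**Figure D5:**
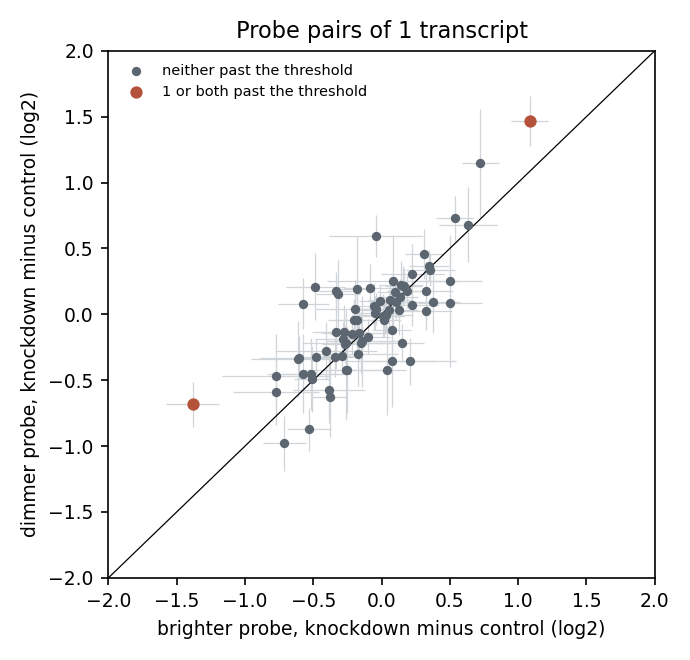
Log2 change, knockdown minus control, of the dimmer (y axis) against the brighter probe (x axis) for the 77 pairs of tested probes that share a transcript, with SE bars and the line of equality. Most points lie near the line, and the 2 pairs with a probe past the threshold have the largest rise and the largest fall of the brighter probe.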

How the data were processed

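The 6 arrays were 1-colour (Cy3). The scanner files hold linear spot intensity values that the authors extracted with Agilent Feature Extraction 11.0.1.1, per the file headers. The deposited value table holds log2 values that equal the scanner's log2 processed signal after a shift that is constant within each array (tolerance 0.01), with each column's 75th percentile at about 0 and no centring of probes. Its column medians ran from -4.47 to -4.22. All arrays shared 1 slide and 1 scan day. Flags were read as deposited by the authors (0 or 1 per spot). 0 probes were saturated.

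Spots with an outlier flag were dropped, the log2 processed signals of each probe's remaining spots were averaged, and the array's 75th percentile was subtracted. 12 probes, 1 of them Ensembl-only, had no usable spot on some array. Probes well above background on at least 3 arrays, in at least 0.5 of their spots, were tested with limma 3.58.1 in R 4.3.3 (lmFit and eBayes, two-sided, no block, Benjamini-Hochberg over 31804 probes, threshold 0.05) and the fit was tested on simulated data. Python 3.11.15 and matplotlib 3.10.9 did the rest.

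Members and lists were chosen with earlier results of these data known. The naming rule took the largest rises and falls that moved alike in all pairs, past the threshold, shortened to 2 each way because the accessions have no gene names here. Its gene classes and its comparisons by gene name were not run for that reason. Deviations of paired arrays from their group means correlated at -0.23, 0.56 and -0.36 over the tested Ensembl-only probes. The pairing comes from the shared dates in the titles.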

Additional observations from a re-analysis of the deposited data

How the results depend on the processing

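The direction of all 39 calls held in all 17 alternative fits that tested them. Most of these fits could not have reversed it. The groups of all 39 did not overlap, so leaving out arrays or pairs keeps the sign. The block, the filters and the deposited table use the same probe values. Only other normalisation or background correction could have changed a direction. The count of 39 was 31 with quantile normalisation and 45 with the 75th percentile over probes detected on all arrays. It was 40 with normexp and 38 with the deposited table. Over all 31804 tested probes, where the main fit gave 556, these fits gave 414, 571, 591 and 554, in that order. Among probes detected on all arrays the count was 49 of 3421, beside 621 of all 29205 tested there. With 1 probe per accession the count was 56 of 3779, beside 622 of all 26112 tested there. Raising signals to the detection floor, normexp on spot medians and 1 probe per accession were chosen after seeing the data, the last 2 because the files have no mean signal and no gene names, so normexp on mean signals and 1 probe per gene name were not run. With normexp 20 of the 40 were among the 39. The count was 167 at an adjusted p below 0.1 (6.09% of all tested probes) and 0 with the replicate block (also 0 of all tested probes). With no filter it was 5 of 7283, beside 58 of the 56593 probes that were adjusted together. Leaving out single arrays gave 0 to 19, beside 0 to 192 of all tested probes. Leaving out pair 1, 2 or 3 gave 0 each time, also over all tested probes, with 366 to 659 Ensembl-only probes at an unadjusted limma p below 0.05. Those fits have fewer arrays, and the cause of the losses was not otherwise tested. The median log2 fold change ran from -0.10 without pair 3 to 0.04 without pair 1. The share detected was 57.6% on 1 or more arrays and 47.0% on all arrays. The difference in detected probes per array, -13.7, ranged from -45.0 to 43.5 with single arrays left out, being 13.3 without knockdown replicate 2 and 43.5 without control replicate 3. The dimmest Ensembl-only probes, less than 1 log2 unit above the floor, had the widest spread between arrays (median SD 0.41 within groups).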
